A study of Mus musculus with 6 samples.

Results

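The 10 genes studied here belong to the bone morphogenetic protein (BMP) pathway, and their expression was compared in sorted mouse skin fibroblasts. They were the ligands Bmp2, Bmp4 and Bmp7, the type I receptor Bmpr1a, the secreted antagonist Grem1, and the direct target genes Id1, Id2, Id3, Smad6 and Atoh8. The genes were picked by name as pathway members, with earlier results of these data known. Each was read from its probe set on the array, so the comparison had 10 members among 22180 named genes measured. Each of the 10 had a single probe set of its own. Fibroblasts came from the ventral skin of female mice aged 8 to 12 weeks on a C57BL/6 background. The 3 KrP samples came from the transgenic line K14-PTHrP, which makes PTHrP, a secreted relative of parathyroid hormone, from the keratin 14 promoter of basal keratinocytes and whose ventral skin resembles that of a nipple. The 3 WT samples came from wild-type littermates without the transgene. Cells were pooled before sorting, and were collected as viable cells carrying CD140 and lacking CD31, CD45, CD117 and CD49f. The labels name 3 mice as the source without saying whether these served 1 sample or a whole genotype, so the spread behind each p-value is that between these samples, and may be no more than technical. The descriptions of KrP 2 and KrP 3 name another keratin than K14, and the genotype field was followed.

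BMP ligands are secreted dimers that bring type I and type II receptor kinases together. The active receptors phosphorylate SMAD1, SMAD5 and SMAD9, which enter the nucleus with SMAD4 and switch on target genes. The Id genes are among the most direct of these targets and encode helix-loop-helix proteins that bind basic helix-loop-helix factors and keep them from DNA. In the embryonic mammary bud, PTHrP from the epithelium acts on the mesenchyme around it, and BMP signalling has been reported to cooperate with it there and to restrain hair follicle formation.

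Promoter sequences of the target genes are shown because the values of these genes lay on the same side in every KrP sample in the data that follow, although only Atoh8 passed the test. Of the 10 members, 7 had an entry in the RefSeq promoter table (mouse build GRCm38.p6), and Bmp2, Bmp7 and Id1 did not. The stretches run 5′ to 3′ from 250 bases before the gene's start. Capitals mark GGCGCC, the GC-rich palindrome bound by BMP-activated SMADs, or GTCTAGAC, the palindrome that joins a pair of SMAD boxes. Both strands were searched for these and for a spaced element, GGCGNC followed by 5 bases of any kind and GTCT, and no matches overlapped. The Id2 stretch lies at chr12:25096093-25096342, that of Smad6 at chr9:64022056-64022309 and that of Atoh8 at chr6:72235578-72235827, all on the minus strand.
Id2: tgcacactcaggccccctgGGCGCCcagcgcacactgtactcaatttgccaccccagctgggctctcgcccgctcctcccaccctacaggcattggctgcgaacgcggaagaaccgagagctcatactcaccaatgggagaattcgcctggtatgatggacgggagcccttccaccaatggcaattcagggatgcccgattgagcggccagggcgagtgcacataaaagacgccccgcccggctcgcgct
Smad6: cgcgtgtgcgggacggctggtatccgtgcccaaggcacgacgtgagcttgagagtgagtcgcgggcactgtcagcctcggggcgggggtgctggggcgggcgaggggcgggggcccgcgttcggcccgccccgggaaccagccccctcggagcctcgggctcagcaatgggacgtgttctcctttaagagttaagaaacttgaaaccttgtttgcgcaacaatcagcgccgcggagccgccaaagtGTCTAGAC
Atoh8: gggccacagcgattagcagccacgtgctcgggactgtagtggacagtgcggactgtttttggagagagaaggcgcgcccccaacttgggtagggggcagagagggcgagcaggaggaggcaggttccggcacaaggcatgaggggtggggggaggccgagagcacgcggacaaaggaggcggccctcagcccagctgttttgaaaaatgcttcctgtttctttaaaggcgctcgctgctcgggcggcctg

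In Smad6 the palindrome GTCTAGAC spanned the gene's start, with 4 bases before it and 4 from it on, and 0.211% of 27025 mouse promoters held these letters in the same window of 250 bases before to 50 after the start. In Id2 the palindrome GGCGCC began 231 bases before the start. GGCGCC was found before the start in 3 of the 7 members, Bmpr1a, Grem1 and Id2, against 9.54% of all promoters. The 7 members' stretches held 62.8% to 78.8% G and C, where the median over all promoters was 52.0%. The spaced element was not found in any of the 7 windows, and 0.207% of promoters held it before the start. Atoh8 and Id3 held none of the 3 motifs in these windows, which says only that these letters are not there.

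The arrays were first checked for the labelled cell type. Pdgfra, which encodes CD140a, had log2 values of 13.13 to 13.32 in WT and 13.42 to 13.54 in KrP samples, and all 11 fibroblast markers lay in every sample above 6.28, the 95th percentile of 1105 olfactory receptor genes used as a guide to background. Ptprc (CD45) lay below that level in every sample, Pecam1 (CD31) ran from 6.49 to 7.13 and Kit (CD117) from 5.92 to 6.44. Itga6 (CD49f) ran from 6.49 to 8.16. WT 2 stood apart in the keratinocyte markers, whose summed level was 10.84 on the log2 scale in that sample, 10.02 and 10.12 in the other WT samples and 9.90 to 10.28 in KrP samples. None of the 12 measured keratinocyte markers passed limma between groups. At an unadjusted p under 0.05 by limma, 0 were higher and 1 lower, where 9.44% and 6.56% of all genes were. Pth1r, the receptor of PTHrP, averaged 7.41 ± 0.13 over the WT and 7.50 ± 0.28 over the KrP arrays (SD, n = 3 each, limma adjusted p = 0.852).

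The target genes had higher values in KrP fibroblasts, whereas 4 of the 5 ligand, receptor and antagonist genes overlapped between the groups. Atoh8 alone rose by limma without a block, 2.63-fold. For Id1, Id2, Id3, Smad6, Atoh8 and Bmp7, every KrP sample lay above every WT sample. These 6 of 10 members compare with 11.4% of all genes whose groups did not overlap with KrP higher, and 0 members lay wholly lower in KrP, against 8.93% of all genes. By limma over all genes, 1 of 10 members passed at an adjusted p under 0.05 as higher and 0 as lower, where 1.15% and 1.03% of all genes did. At an unadjusted p under 0.05, 6 members were higher and 0 lower, where 9.44% and 6.56% of all genes were. The median difference of the 10 members was 0.40 on the log2 scale, beside 0.01 over all genes. In sorted cell preparations of this kind, fewer cells of a type and less RNA per cell cannot be told apart.

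**Figure D1:**
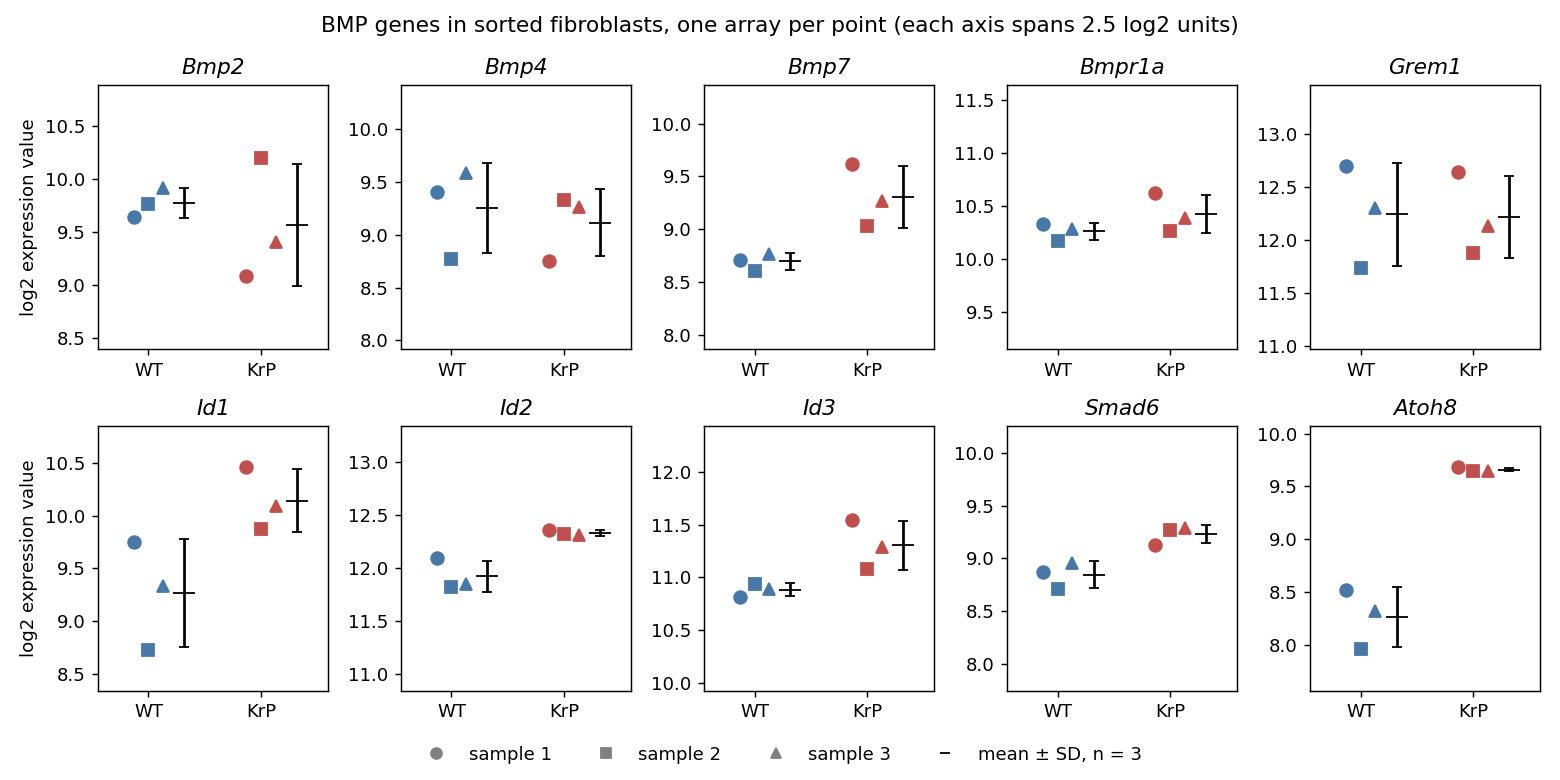
Log2 expression values of the 10 genes in the 3 WT and 3 KrP samples, 1 array per point, with the mean and SD of each group to the right of its points and the marker shape giving the replicate number. Every axis spans the same number of log2 units, and the KrP points lie above all WT points for Bmp7, Id1, Id2, Id3, Smad6 and Atoh8.

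Atoh8, a basic helix-loop-helix transcription factor induced by BMP receptors, had the largest difference of the 10. Its log2 values were 8.52, 7.96 and 8.32 in WT 1 to 3 and 9.68, 9.65 and 9.65 in KrP 1 to 3. The KrP samples were almost level with each other, the WT samples were spread more widely, and a gap of 1.13 separated the highest WT from the lowest KrP value. The group means were 8.27 ± 0.28 and 9.66 ± 0.02 (SD, n = 3 each), a log2 difference of 1.39 ± 0.16 SE (limma adjusted p = 0.00573). Of all genes, 0.406% had a difference at least as high. Without KrP 3 the difference was 1.40 and the adjusted p was 0.0511, the only alternative among 16 in which Atoh8 lost its call.

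Id1 had the second largest difference. Its values were 9.75, 8.73 and 9.33 in WT 1 to 3 and 10.46, 9.87 and 10.09 in KrP 1 to 3. WT 2 was the lowest sample and WT 1 came within 0.12 of the lowest KrP sample. The log2 difference was 0.87 ± 0.26 SE, with a 95% confidence interval of 0.27 to 1.47, and it did not pass over all genes (limma adjusted p = 0.152). Same-numbered samples differed by 0.71, 1.14 and 0.76. With the replicate number as a block Id1 rose (limma adjusted p = 0.00900).

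Id2 and Id3 encode further inhibitors of helix-loop-helix factors. Id2 had 12.09, 11.82 and 11.85 in WT 1 to 3 and 12.36, 12.32 and 12.31 in KrP 1 to 3, so that the KrP samples again lay close together. Its log2 difference was 0.41 ± 0.09 SE (limma adjusted p = 0.0694, or 0.0238 with the replicate block). Id3 had 10.82, 10.94 and 10.89 in WT samples and 11.54, 11.08 and 11.29 in KrP samples, with KrP 1 the highest and KrP 2 only 0.14 above WT 2. Its difference was 0.42 ± 0.13 SE (limma adjusted p = 0.156, or 0.0855 with the block). Without KrP 2 Id3 passed the test at a difference of 0.53 (limma adjusted p = 0.0436).

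Smad6, an inhibitory SMAD that blocks signalling from BMP receptors and is itself a BMP target, had 8.87, 8.71 and 8.96 in WT 1 to 3. Its KrP values were 9.13, 9.27 and 9.29. The groups did not overlap, with a gap of 0.17, and KrP 1 was the lowest KrP sample, unlike in Id1, Id2, Id3 and Atoh8, where it was the highest. The log2 difference was 0.38 ± 0.12 SE (limma adjusted p = 0.176, or 0.0824 with the block). Over the 5 target genes the differences ran from 0.38 to 1.39.

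Among the ligands, the groups were apart in Bmp7 and overlapped in Bmp2 and Bmp4. Bmp7 had 8.71, 8.61 and 8.77 in WT 1 to 3 and 9.62, 9.03 and 9.27 in KrP 1 to 3. The WT samples lay within 0.16 of each other, and the KrP samples lay above all of them but were spread. The log2 difference was 0.61 ± 0.16 SE, a fold of 1.53 (limma adjusted p = 0.115), and with the replicate block Bmp7 rose (limma adjusted p = 0.0345). Without KrP 2 it passed at a difference of 0.75 (limma adjusted p = 0.0360).

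Bmp2 and Bmp4, close relatives that bind the same type I receptors, each varied within both groups. Bmp2 had 9.64, 9.76 and 9.92 in WT samples and 9.08, 10.20 and 9.41 in KrP samples, so that KrP samples included both the lowest and the highest of the 6. Its log2 difference was -0.21 with a 95% confidence interval of -0.81 to 0.39 (limma adjusted p = 0.773). Bmp4 had 9.40, 8.77 and 9.58 in WT samples and 8.75, 9.33 and 9.26 in KrP samples, with WT 2 and KrP 1 the low samples. Its difference was -0.14 with an interval of -0.69 to 0.41 (limma adjusted p = 0.848). These intervals leave room for changes of up to 1.75-fold lower for Bmp2 and 1.61-fold lower for Bmp4, so equal levels were not shown.

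Bmpr1a, the type I receptor through which BMP2 and BMP4 signal, had 10.33, 10.17 and 10.28 in WT 1 to 3 and 10.62, 10.26 and 10.39 in KrP 1 to 3. KrP 2 lay below WT 1 and WT 3, so the groups overlapped. The log2 difference was 0.16 with a 95% confidence interval of -0.12 to 0.45 (limma adjusted p = 0.588), and each KrP sample lay above the WT sample of the same number, by 0.29, 0.09 and 0.11. With the replicate block Bmpr1a did not pass either (limma adjusted p = 0.356), and without KrP 1 the difference was 0.065.

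Grem1 encodes gremlin 1, which binds BMP2, BMP4 and BMP7 outside the cell and keeps them from their receptors. It had 12.70, 11.73 and 12.30 in WT 1 to 3 and 12.64, 11.88 and 12.13 in KrP 1 to 3. Samples numbered 1 were high and samples numbered 2 low in both groups, so that the same-numbered differences were -0.06, 0.15 and -0.17. The group difference was -0.03, with a 95% confidence interval of -0.63 to 0.57 without the block and -0.22 to 0.17 with it (limma adjusted p = 0.978 and 0.898).

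**Figure D2:**
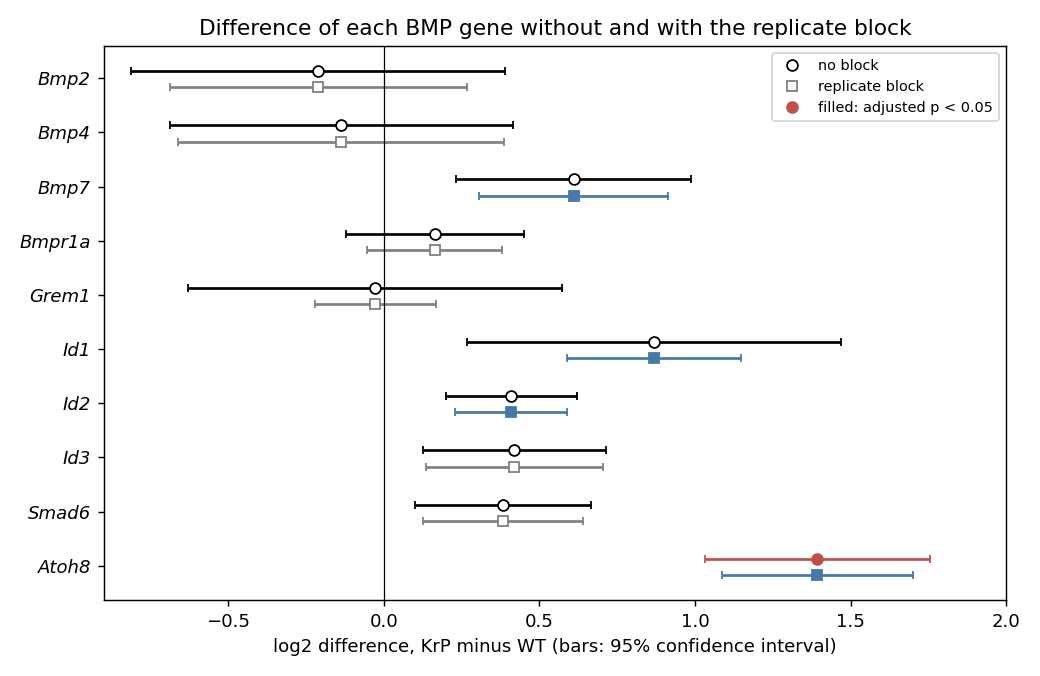
Log2 difference, KrP minus WT, of each of the 10 genes with its 95% confidence interval from limma without a block (circles) and with the replicate number as a block (squares), filled where the adjusted p was under 0.05. Atoh8 is filled in both fits at 1.39, and Bmp7, Id1 and Id2 are filled with the block only.

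Samples in both groups carry the numbers 1 to 3, and across all genes same-numbered samples deviated together from their group means, though only weakly for number 3. With this number as a block, 4 of 10 members passed as higher, namely Bmp7, Id1, Id2 and Atoh8, and 0 as lower, where 5.33% and 3.02% of all genes did. No label says that a number marks a shared animal or day, and the pairing was read from these same data, so block p-values may be too small. The count of members passing without the block was 0 without KrP 3 (5 at an unadjusted p under 0.05 by limma), 3 without KrP 2, and 1 without any other single sample. Atoh8, Bmp7 and Id3 were the 3. The count over all 22180 genes moved the same way, from 483 to 85 without KrP 3 (2348 at an unadjusted p under 0.05 by limma) and to 1116 without KrP 2. The count of members whose KrP values all lay higher was 7 without KrP 2 and 6 without any other single sample, while the share of all genes doing so ran from 13.7% to 18.8%. Leaving out a sample cannot make separate groups overlap, so neither the count nor the share could fall, and they do not test the separation. The count lying wholly lower was 1 without WT 2 (Bmp4), 1 without KrP 2 (Bmp2) and 0 without any other single sample. With all samples 8.93% of all genes lay wholly lower, and this share cannot fall when a sample is left out. Its size in each of these settings was not computed, so these counts show no departure from all genes.

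Many members also shared a pattern among samples of 1 group. How many of all genes shared it was not counted, so it is not shown to be particular to the members. WT 2 was the lowest WT sample in 8 of 10 members, all but Bmp2 and Id3. KrP 1 was the highest KrP sample in 7 of 10 members and the lowest in the other 3, Bmp2, Bmp4 and Smad6. KrP 2 was the lowest in 5. Without WT 2, the sample with the high keratinocyte markers, the log2 difference was 0.60 for Id1, 0.36 for Id2, 0.45 for Id3, 0.32 for Smad6 and 1.24 for Atoh8. Of these, Atoh8 passed (limma adjusted p = 0.0140).

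Immediate early genes respond within minutes to stimuli that include tissue dissociation, and 3 of 16 on a list of immediate early and stress genes had the sample order of Id1. The AP-1 subunit gene Fos had log2 values of 9.56, 8.47 and 9.29 in WT 1 to 3 and 10.96, 10.13 and 10.28 in KrP 1 to 3, and Fos, Fosb and Jun placed the 6 samples in the same order as Id1, while the other 13 did not. These 3 genes were chosen after their values were seen. Of the 16 genes, 0 passed limma, where 1.15% of all genes rose and 1.03% fell. At an unadjusted p under 0.05 by limma, 5 were higher and 1 lower, where 9.44% and 6.56% of all genes were. With the block 4 rose and 1 fell, where 5.33% and 3.02% of all genes did. In 4 every KrP sample was higher and in 1 every KrP sample was lower, beside 11.4% and 8.93% of all genes. The groups' summed levels overlapped, at 15.72 to 15.80 in WT and 15.75 to 16.10 in KrP samples. The genes wholly higher in KrP samples were Fos, Fosb, Jun and Egr2, named after their values were seen. They shared this separation of the groups with Id1, Id2, Id3, Smad6, Atoh8 and Bmp7. The part of dissociation in the values of these members was not tested.

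**Figure D3:**
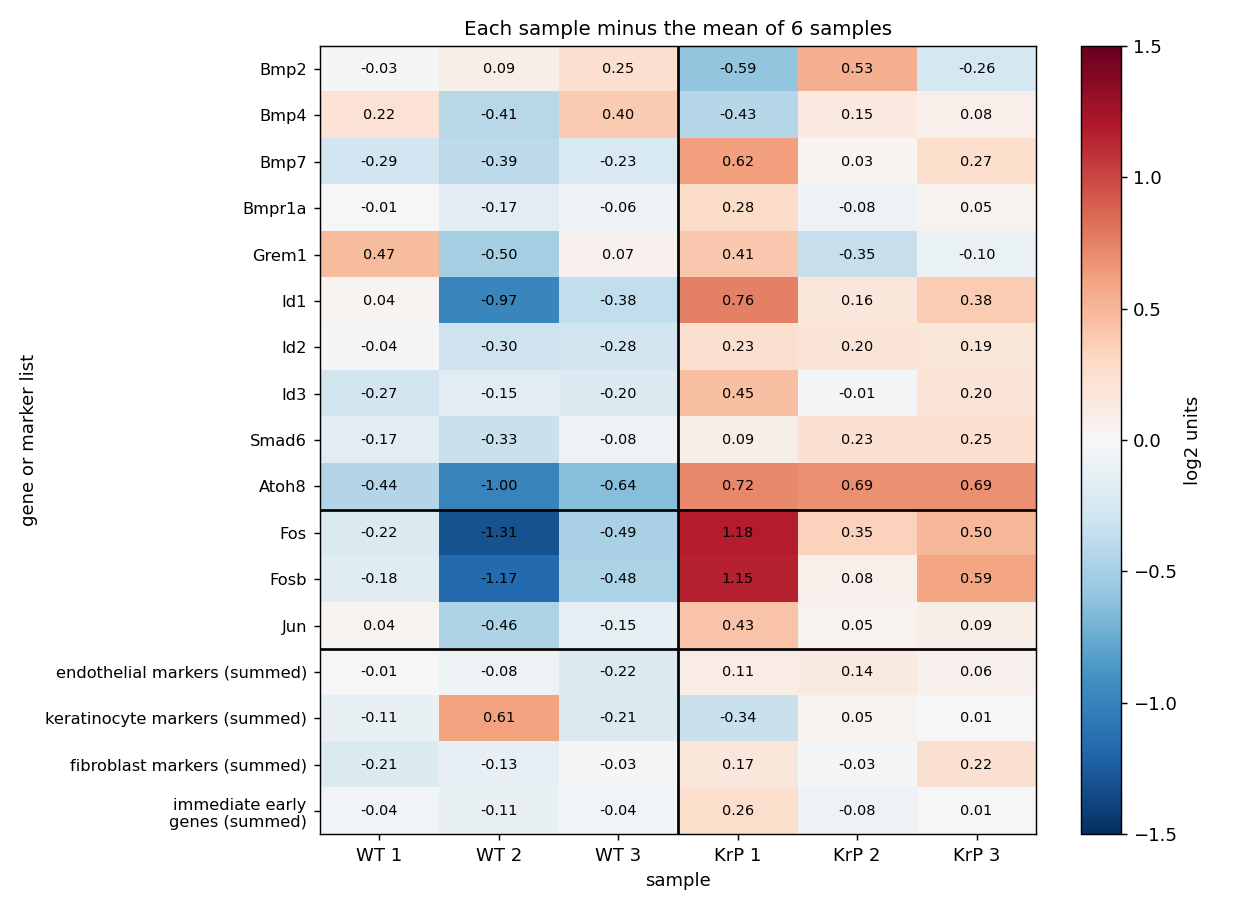
Log2 value of each sample minus the mean of the 6 samples, for the 10 genes, for the immediate early genes Fos, Fosb and Jun, and for the summed level of 4 marker lists. Red is above and blue below the mean, with the value printed in each cell, and Id1, Fos, Fosb and Jun share 1 order of the samples while the keratinocyte markers stand out in WT 2.

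Id1, Smad6 and Atoh8 are also known from blood vessel endothelium, so endothelial markers were set beside them. Of 16 measured, 2 rose (Sox18 and Flt1) and 2 fell (Tek and Cldn5), where 1.15% and 1.03% of all genes did. The median difference of the 16 was -0.05. Their summed log2 level was 11.01 to 11.22 in WT and 11.29 to 11.37 in KrP samples, so the sum was higher in every KrP sample, although 11 of the 16 markers had negative differences. Single markers lay wholly lower in KrP samples in 5 cases and wholly higher in 2, where 8.93% and 11.4% of all genes did. With the block 4 fell and 2 rose, where 3.02% and 5.33% of all genes did. Pecam1, the antigen removed by the sort, had a difference of -0.05 (limma adjusted p = 0.931), and Cdh5, another defining marker, had 7.86, 8.18 and 7.32 in WT and 8.56, 8.39 and 8.04 in KrP samples (limma adjusted p = 0.304). Kdr, another defining marker, had 9.28, 8.19 and 8.67 in WT and 7.76, 6.84 and 7.31 in KrP samples, a difference of -1.41 (limma adjusted p = 0.0658, or 0.00158 with the block). None was at 0, since the arrays give no true zero. Of the 16, 1 lay in every sample at or below the background guide and 9 lay above it in every sample. Tek ran from 6.41 to 6.68 in WT and from 5.60 to 6.02 in KrP samples. Cldn5 ran from 7.02 to 7.37 in WT and from 6.10 to 6.34 in KrP samples. The KrP values of both lay near or below the guide of 6.28, where differences are compressed. Markers other than Pecam1 were chosen here after their values were seen, and the part of endothelial cells in the target gene values was not tested. The summed fibroblast markers ran from 15.69 to 15.87 in WT and from 15.87 to 16.12 in KrP samples, with 0 of 11 passing limma. At an unadjusted p under 0.05 by limma, 5 were higher and 0 lower, where 9.44% and 6.56% of all genes were. With the block 3 rose and 0 fell, where 5.33% and 3.02% of all genes did. The summed melanocyte and glial markers were 9.82 to 9.94 in WT and 10.05 to 10.57 in KrP samples. Yet 6 of these 9 markers had negative differences, with a median of -0.06 and a highest difference of 0.75. Of the 9, 0 passed limma, and 5 lay at or below the background guide in every sample. At an unadjusted p under 0.05 by limma, 1 was higher and 1 lower, beside 9.44% and 6.56% of all genes. The summed pericyte markers were 9.99 to 10.25 in WT and 9.73 to 9.94 in KrP samples. Of these 8 markers, 4 had positive and 4 negative differences, the lowest being -1.10. By limma 0 rose and 1 fell, where 1.15% and 1.03% of all genes did. Blood cell markers overlapped in sum, at 10.31 to 10.69 in WT and 10.40 to 10.63 in KrP samples. Of 12, 1 rose, Csf1r (difference 0.73, limma adjusted p = 0.0347), and 0 fell, where 1.15% and 1.03% of all genes did. Csf1r was the only blood cell marker with a positive difference, and 11 were negative, with a median of -0.13 over the list. Smooth muscle markers overlapped too, at 10.72 to 11.86 and 11.51 to 13.18, with 0 of 6 passing limma. At an unadjusted p under 0.05 by limma, 1 was higher and 0 lower, beside 9.44% and 6.56% of all genes. The gene was Acta2, wholly higher in KrP samples, with a difference of 1.31 (limma adjusted p = 0.154, or 0.0138 with the block). Csf1r and Acta2 were chosen after their values were seen. The part of these cell types was not tested either.

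Other genes of the pathway lay in both directions. Of 68 measured genes on 5 lists of ligands, receptors, antagonists, SMADs and targets, 2 rose and 2 fell (limma adjusted p under 0.05). Of all genes 1.15% and 1.03% did so. With the replicate block 7 rose and 5 fell, where 5.33% and 3.02% of all genes did. Outside the 10 members, 12 of 58 genes lay wholly higher and 14 wholly lower in KrP samples, where 11.4% and 8.93% of all genes did, and their median difference was -0.01.

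Among 15 ligands, 0 passed limma in either direction, where 1.15% of all genes rose and 1.03% fell. At an unadjusted p under 0.05 by limma, 3 were higher and 2 lower, beside 9.44% and 6.56% of all genes. With the block 2 rose and 1 fell, beside 5.33% and 3.02% of all genes. The ligands that passed with the block beside Bmp7 were Gdf10 and Bmp6, chosen after their values were seen. Gdf10, a divergent member of the BMP family also called BMP3B, had 9.29, 8.02 and 8.98 in WT 1 to 3 and 11.51, 9.70 and 10.75 in KrP 1 to 3. All KrP samples were higher, in the same order of numbers as in WT, and the log2 difference of 1.89 ± 0.47 SE had a limma adjusted p of 0.0924 without and 0.00156 with the block. Bmp6 had 9.29, 9.51 and 9.35 in WT and 7.31, 8.98 and 8.20 in KrP samples, all lower but widely spread, a difference of -1.22 ± 0.36 SE (limma adjusted p = 0.145, or 0.0330 with the block). Without KrP 1 the difference was -0.79, and without KrP 2 it was -1.63 and passed (limma adjusted p = 0.0135), as it did with weighted arrays (limma adjusted p = 0.00241).

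Of all genes 1.15% rose and 1.03% fell without the block, and 5.33% and 3.02% with it. Of 10 measured receptors and co-receptors, 0 rose and 1 fell, with and without the block. This was Acvrl1, which encodes the type I receptor ALK1, best known from endothelium. It had 10.33, 9.86 and 9.92 in WT 1 to 3 and 9.09, 9.40 and 9.18 in KrP 1 to 3, and the groups did not overlap. The log2 difference was -0.81 ± 0.16 SE (limma adjusted p = 0.0452), and the call ended with median centring (0.0540) and without WT 1 (0.0991), WT 2 (0.0741), WT 3 (0.156), KrP 1 (0.0995) or KrP 3 (0.223). Bmpr1b, the other receptor of the BMPR1 type, chosen after its values were seen, was 8.60, 8.66 and 8.44 in WT and 7.11, 8.05 and 8.11 in KrP samples (difference -0.81 ± 0.26 SE, limma adjusted p = 0.169). Its difference was -0.49 without KrP 1 and -0.43 with weighted arrays.

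Of 21 antagonists and modulators measured, 1 rose and 1 fell, beside 1.15% and 1.03% of all genes. With the block 2 rose and 1 fell, beside 5.33% and 3.02% of all genes. Smoc2, a matricellular protein of a family that modulates BMP signalling, had 10.09, 10.20 and 10.16 in WT 1 to 3 and 12.07, 11.55 and 11.73 in KrP 1 to 3. It rose 3.10-fold (log2 difference 1.63 ± 0.14 SE, limma adjusted p = 0.00228). Tll1, a tolloid-like metalloproteinase that cleaves the antagonist chordin and so frees BMP ligands, had 8.91, 8.65 and 8.58 in WT and 6.39, 6.88 and 6.46 in KrP samples. It was 4.40-fold lower (log2 difference -2.14 ± 0.17 SE, limma adjusted p = 0.00162), and the KrP values lay near the background guide of 6.28, where differences are compressed. Smoc2 and Tll1 kept their calls in all 16 alternatives. Fstl3, a follistatin-like binder of activins and some BMPs chosen after its values were seen, passed with the block (difference 0.51, limma adjusted p = 0.107 without and 0.0340 with it).

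Of 12 measured SMADs and SMAD regulators, 0 passed limma, where 1.15% of all genes rose and 1.03% fell. At an unadjusted p under 0.05 by limma, 1 was higher and 3 lower, beside 9.44% and 6.56% of all genes. With the block 0 rose and 2 fell, beside 5.33% and 3.02% of all genes. The 2 were Smad7 and Skil, chosen after their values were seen. Smad7, the inhibitory SMAD that acts on TGF-beta as well as BMP receptors, had 11.27, 11.37 and 11.40 in WT 1 to 3 and 10.59, 11.12 and 10.81 in KrP 1 to 3. It lay lower in every KrP sample, opposite in sign to Smad6, with a log2 difference of -0.51 ± 0.14 SE (limma adjusted p = 0.123, or 0.0340 with the block). Skil, a corepressor of SMADs induced by TGF-beta, had a difference of -0.62 ± 0.16 SE (limma adjusted p = 0.0962, or 0.0146 with the block).

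Of 14 measured BMP target genes, Atoh8 alone rose and 0 fell, beside 1.15% and 1.03% of all genes. With the block 3 rose and 1 fell, beside 5.33% and 3.02% of all genes. In 7 of the 14 every KrP sample was higher and in 2 every KrP sample was lower, beside 11.4% and 8.93% of all genes, with a median difference of 0.39 over the list and 0.02 over the 9 targets outside the 10 members. The 7 were the 5 target members with Id4, the fourth Id gene (difference 0.42 ± 0.14 SE, limma adjusted p = 0.199), and Msx2, a homeobox gene of the mammary and nipple mesenchyme. Msx2 had 7.12, 7.17 and 7.11 in WT 1 to 3 and 7.36, 7.45 and 7.75 in KrP 1 to 3 (difference 0.39 ± 0.13 SE, limma adjusted p = 0.199). The 2 were Smad7 and Bambi, a decoy receptor (difference -0.27 ± 0.13 SE, limma adjusted p = 0.351). Id4, Msx2 and Bambi were named after their values were seen.

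**Figure D4:**
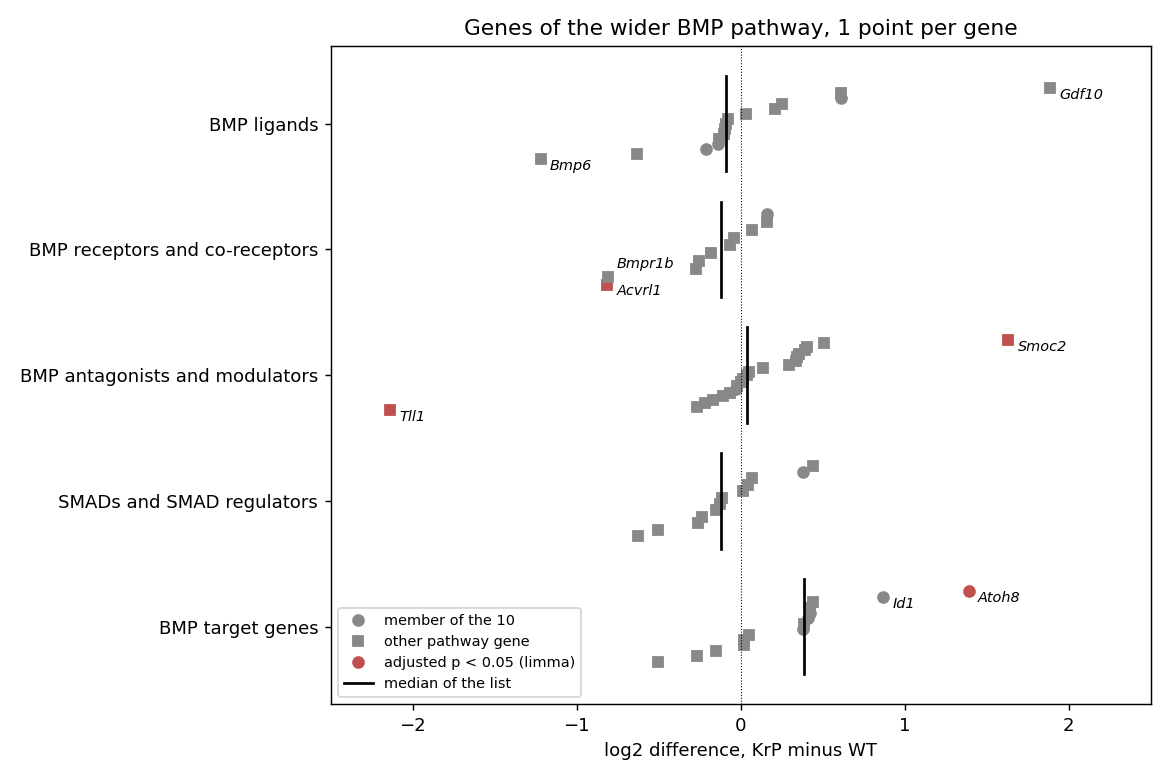
Log2 difference, KrP minus WT, of each measured gene on 5 lists of the wider BMP pathway, with circles for the 10 members, squares for other genes, red where the limma adjusted p was under 0.05 and a black bar at each list's median. The median is 0.39 for target genes and lies between -0.12 and 0.04 for the other lists, and genes on 2 lists appear in both rows.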

How the data were processed

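Expression was measured on 1 array per sample in 3 WT and 3 KrP samples of sorted fibroblasts, from 100 ng of total RNA, per the labels' protocols. The authors deposited log2 values, 1 per probe set and array, between 1.72 and 14.32, with array medians of 6.34 to 6.43. The submitters' processing notes list Partek and RMA, and a genome build is not given in the sources used here. No further normalisation was applied. Arrays hold no read depth, so their number limits the precision, and brightness does not rank different genes.

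Of 34390 probe sets, 23521 had 1 gene in the platform annotation, 1814 had several and 9055 had none. Symbols were updated by gene ID through RefSeq (23328 matched), and the probe set with the highest mean was kept for each of 22180 genes. Differences were fitted over all genes with limma 3.58.1 in R 4.3.3 (lmFit, eBayes with trend, no block), with Benjamini-Hochberg adjustment and calls at an adjusted p under 0.05. A summed level is the log2 of the sum of a list's linear values. The members, lists and tests were chosen with earlier results of these data known. The text names all 10 members, up to 3 called genes per pathway list and direction, the sort markers and Pth1r, and other genes where it says that they were chosen after their values were seen. The script was tested on simulated data.

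Deviations from the group means correlated across genes by 0.414, 0.350 and 0.120 between samples numbered 1, 2 and 3. Between samples of different number they correlated by 0.067 or less, so number 3 stood little above these. Deviations cancel out within a group, so these correlations are not independent and do not establish a pairing. The numbers were used as a block in an alternative fit only. This pairing comes from the same data as the block p-values, and no label states it. Alternatives changed the variance prior, array weights, filter, normalisation, probe choice, pairing or samples. Figures were drawn with matplotlib 3.10.9.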

Additional observations from a re-analysis of the deposited data

How the results depend on the processing

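The count of all genes passing limma was 483, and it was 6410 with weighted arrays, 1851 with the replicate block and between 85 and 1116 when 1 sample was left out (85 for KrP 3, 101 for WT 3, 1116 without KrP 2, and 230, 256 and 321 without WT 1, WT 2 and KrP 1 in turn). The count of the 10 members passing was 1, and it was 6 with weighted arrays, 4 with the replicate block, 2 with the lower 50% of genes by mean level left out, and 0 to 3 when 1 sample was left out (0 without KrP 3, 3 without KrP 2). The count of 68 pathway genes passing was 4, and it was 32 with weighted arrays, 12 with the block and 2 to 11 when 1 sample was left out (2 without KrP 3, 11 without KrP 2). The cause of these moves was not tested, beyond the smaller number of samples or genes that leaving some out brings. Weights rest on the same 6 arrays that they weight.

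The directions of Bmp7, Bmpr1a, Id1, Id2, Id3, Smad6 and Atoh8 held in the 16 alternatives, but most of these could not have turned them. The variance prior, filter, probe choice and block left every member's difference unchanged. Where the groups did not overlap, as in all of these genes but Bmpr1a, leaving out a sample or weighting arrays could not turn the sign. With 1 sample left out, the log2 difference ran from -0.53 up for Bmp2, from -0.38 up for Bmp4 and from -0.28 up for Grem1, and the sign turned 7 times. Bmp2 was 0.032 without KrP 1. Bmp4 was 0.028 without WT 3 and 0.045 without KrP 1. Grem1 was 0.20 without WT 1, 0.0017 without WT 3, 0.14 without KrP 2 and 0.017 without KrP 3. Log2 values near the background guide have compressed differences.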
